A study of Mus musculus with 12 samples.

Results

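The transcripts of 10 transcription factors and promoter-recognition factors of the mouse oocyte were followed in germinal vesicle (GV)-stage oocytes: *Nobox*, *Figla*, *Lhx8*, *Sohlh1*, *Taf4b*, *Tbpl2*, *Foxo3*, *Sall4*, *Bnc1* and *Bnc2*. They were chosen by name, and all 10 were found among the 24259 gene symbols of the expression table. The WT and *Lsm14b*-KO mice were 3 weeks old and of the C57BL/6J background, and oocytes were collected 46 h after 5 IU of PMSG, a gonadotropin that stimulates follicle growth. The KO mice were homozygous for the reporter-tagged insertion allele tm1a(KOMP)Mbp of *Lsm14b*, which all their cells carry, so the data do not separate a loss in the oocyte from one in the surrounding cells or in earlier development. LSM14B is a germ-cell RNA-binding protein of RNP particles. The authors detected the protein in oocytes of all follicle stages, but not in granulosa cells or the other tissues examined. Lysates of pooled oocytes were separated on sucrose gradients, fractions 1 to 10 were pooled as RNP (mRNA free of polysomes) and fractions 11 to 28 as polysome (mRNA bound by several ribosomes), and each pool of each genotype gave 3 libraries, 12 in all.

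These factors act at successive steps of oocyte life. SOHLH1 is a basic helix-loop-helix factor of early germ cells, and FIGLA, a partner of E-proteins at E-box sequences, NOBOX and LHX8, both homeodomain proteins, activate oocyte genes in primordial and growing follicles. FOXO3 keeps primordial follicles dormant, TAF4B and TBPL2 are germ-cell relatives of general promoter-binding proteins, SALL4 and BNC1 are zinc finger proteins needed for oocyte growth and meiosis, and BNC2 is a paralog of BNC1. By the GV stage transcription falls silent, so that stored mRNA and its translation set which proteins the oocyte makes.

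Of the 10 factors, 4 had a higher mRNA level in KO oocytes, relative to the other genes of the pool, in at least 1 pool. None passed the test with a lower level. Of all genes tested, 5.64% passed upwards and 4.73% downwards in polysomes, and 10.5% and 10.2% in RNP. *Nobox* rose most, 2.97-fold in polysomes and 4.46-fold in RNP. *Lhx8* and *Sall4* rose by smaller amounts in both pools, and *Figla* rose in RNP. Of these 4, only *Nobox* kept every call when any 1 library was left out. The 5 other factors that could be tested did not pass the test between genotypes in either pool, and *Sohlh1* was hardly detected.

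The sequences before the RefSeq start sites of *Nobox* and *Figla* are shown because these were the factors with the largest rises in KO RNP. Each sequence has the 250 bases before the start on GRCm38.p6, 5′ to 3′ on the strand of the gene, and capitals mark an E-box (CANNTG, the same on both strands).
*Nobox*, chr6:43309555-43309804, minus strand: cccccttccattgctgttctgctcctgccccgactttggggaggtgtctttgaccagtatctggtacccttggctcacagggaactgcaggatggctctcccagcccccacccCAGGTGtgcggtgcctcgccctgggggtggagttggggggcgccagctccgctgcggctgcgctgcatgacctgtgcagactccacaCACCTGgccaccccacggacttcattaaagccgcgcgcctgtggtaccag
*Figla*, chr6:86016941-86017190, plus strand: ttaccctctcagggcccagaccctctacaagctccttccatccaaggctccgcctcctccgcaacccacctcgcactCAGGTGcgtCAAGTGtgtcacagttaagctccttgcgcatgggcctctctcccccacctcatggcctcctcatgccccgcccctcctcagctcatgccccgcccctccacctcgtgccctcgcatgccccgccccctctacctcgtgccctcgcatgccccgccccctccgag

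*Nobox* has an E-box at -137 and one at -50 relative to the start, and *Figla* has them at -173 and -164, with others at 9 and 22 past it. RefSeq promoters of 300 bases (250 before to 50 after the start) were matched for 8 of the 10 factors, and 5 of the 8 (*Nobox*, *Figla*, *Sohlh1*, *Tbpl2* and *Bnc2*) hold an E-box, while *Lhx8*, *Foxo3* and *Bnc1* do not, against 72.3% of all 32851 promoters. The homeodomain core TAATTG, on either strand, was found in 1 of the 8 (*Bnc2*) against 8.0% of all promoters, and its palindromic form TAATTA also in *Bnc2*, against 5.29%. The LIM homeodomain core TGATTG was found in *Bnc2* as well, against 14.04%. The *Bnc2* window, at 84610148 to 84610447 on chromosome 4, lies inside the gene, which GENCODE has from 84275095 to 84675275. On its minus strand the 5′ end is at 84675275, so all *Bnc2* matches, its E-box included, are those of an internal start. Neither the TATA box TATAAA (13.6% of all promoters) nor the forkhead sequence GTAAACA (3.65%) was found in any of the 8. No match overlapped another. These matches are descriptions of letters in a window, not of binding.

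On GRCm38 (GENCODE M21), *Nobox* lies on chromosome 6 from 43303674 to 43309554 on the minus strand, with 9 exons in its main transcript, and *Figla* on chromosome 6 from 86016171 to 86020996 on the plus strand. The RefSeq start of *Figla* is also that of its other GENCODE transcript, so the sequence above lies in the first intron of the longer one. *Lhx8* lies on chromosome 3 from 154306294 to 154330659, and *Sall4* on chromosome 2 from 168748332 to 168767943, both on the minus strand. *Foxo3* is on chromosome 10, *Bnc1* on 7, *Bnc2* on 4, *Taf4b* on 18, and *Sohlh1* and *Tbpl2* are on chromosome 2. *Sall4*, *Taf4b*, *Bnc1* and *Bnc2* each overlap another annotated gene, and since the sources used here do not say whether counting used the strand, reads of these 4 genes and of their overlapping partners may not be separable.

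Levels are FPKM, fragments per kilobase of transcript and per mega of mapped fragments, which can be compared between genes. The depth of the libraries, estimated from the steps between low FPKM values, was 4.68 to 7.87 M fragments (M, mega), and 10566 to 12720 symbols were above 0. *Lsm14b* was at 11.3, 15.3 and 13.2 FPKM in the WT polysome libraries and at 0.260, 0 and 0.0876 FPKM in those of KO. In RNP it was at 34.6, 29.3 and 27.4 FPKM in WT and at 0.893, 0.0627 and 0 FPKM in KO, so that each library fitted the genotype of its label. These values do not check which pool a library came from. KO polysome replicate 2 stood apart, with 34.7% of its summed FPKM in its 10 most abundant symbols against 11.6 to 14.7% in the other libraries, and results that rest on it are given with and without it. Its top symbol, *Mir300*, alone was listed at 170809 of its summed 698228 FPKM. The labels do not state that replicates came from separate animals or gradients, so p-values measure the spread between these libraries, and intervals of estimated fragments were not used.

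Oocyte and other cell type markers were read in all libraries. The summed level of 8 oocyte markers ran from 19522 to 20676 FPKM in polysomes of WT and from 21636 to 23186 FPKM in those of KO, and from 8528 to 9069 and 9111 to 9620 FPKM in the respective RNP libraries. *Gdf9* made up most of the polysome sums, and single markers differed. In polysomes 2 of the 8 rose and 2 fell (5.64% and 4.73% of all genes), and in RNP 5 rose and 2 fell (10.5% and 10.2%). *Dazl* and *Tcl1* fell and *Sycp3* rose in both pools. Without KO polysome replicate 2, *Sycp3* alone rose and *Tcl1* alone fell in polysomes. The summed level of 12 granulosa cell markers was higher in KO, at 81.2 to 103 against 27.9 to 76.3 FPKM in polysomes and 42.7 to 65.5 against 31.3 to 35.3 FPKM in RNP, with the inhibin subunit gene *Inha* at 39.4 to 51.4 FPKM in KO polysomes against 0 to 9.58 in WT (log2 change 3.27, adjusted p = 0.0364, limma). *Inha* also rose by 2.79 in RNP (adjusted p = 0.00238), and *Fshr* and *Inhba*, which encode the FSH receptor and another inhibin subunit, rose in polysomes by 2.22 (adjusted p = 0.0224) and 2.94 (adjusted p = 0.0105). Of the 7 granulosa markers tested in polysomes, these 3 passed and 5 changes were above 0, where 5.64% of all genes passed upwards. In RNP 1 of 4 passed, against 10.5% of all genes. *Fshr* and *Inhba* in polysomes, and *Inha* in RNP, met the filter of 1 FPKM only through the KO libraries. Their WT libraries were all below 1 FPKM. These counts therefore depend on the filter and are given as a description only. *Cyp19a1*, the 1 marker at 1 FPKM or more in every library, did not pass. In polysomes it was at 62.0, 19.0 and 32.0 FPKM in WT and at 14.6, 23.5 and 34.5 FPKM in KO (log2 change -0.54, adjusted p = 0.495, limma). Without KO polysome replicate 2, *Fshr* and *Inhba* no longer met the filter and were not tested. Their other KO polysome libraries were at 4.36 and 6.74 FPKM for *Fshr* and at 3.72 and 11.9 FPKM for *Inhba*. Of the 4 granulosa markers still tested in polysomes, *Inha* among them, 0 passed. The defining granulosa genes *Foxl2* and *Amhr2* were each listed at 0 in 11 of the 12 libraries. Of the 5 immune markers, *Ptprc* and *Adgre1* were listed at 0 throughout, while the sum, in KO mostly *Ccl2*, was 24.8 to 34.1 FPKM in KO polysomes against 0 to 13.7 in WT, and 23.2 to 31.3 in KO RNP against 9.16 to 16.9 in WT. The 6 stroma and theca markers together stayed at or below 1.36 FPKM. The part of these cells in the differences given here was not tested. In such pools, fewer oocytes and less RNA per oocyte cannot be told apart.

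In WT polysomes the factors covered a wide range of levels. *Nobox* was highest, at 375 ± 25.3 FPKM (SD, n = 3), above 98.2% of the 9806 genes whose mean reached 1 FPKM. *Sall4* at 254 ± 43.5 and *Lhx8* at 247 ± 38.6 FPKM followed and overlapped each other, each below every *Nobox* library. *Foxo3* at 68.3 ± 15.4, *Bnc1* at 61.1 ± 14.5, *Figla* at 45.1 ± 11.6 and *Bnc2* at 32.3 ± 13.2 FPKM formed a middle group in which each overlapped its neighbour in the order. *Taf4b* at 6.91 ± 5.04 and *Tbpl2* at 3.48 ± 0.940 FPKM were low and overlapped.

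The order was partly different in WT RNP. *Nobox* at 334 ± 22.1 and *Sall4* at 287 ± 27.5 FPKM overlapped there, and *Lhx8*, at 104 ± 10.3 FPKM, lay apart from both. *Foxo3* followed at 78.4 ± 9.63, *Bnc2* at 45.9 ± 5.59 and *Bnc1* at 32.2 ± 2.30 FPKM, none overlapping its neighbour. *Figla* was at 10.2 ± 3.73, *Taf4b* at 5.00 ± 4.50 and *Tbpl2* at 4.48 ± 0.832 FPKM, and these overlapped in turn.

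**Figure D1:**
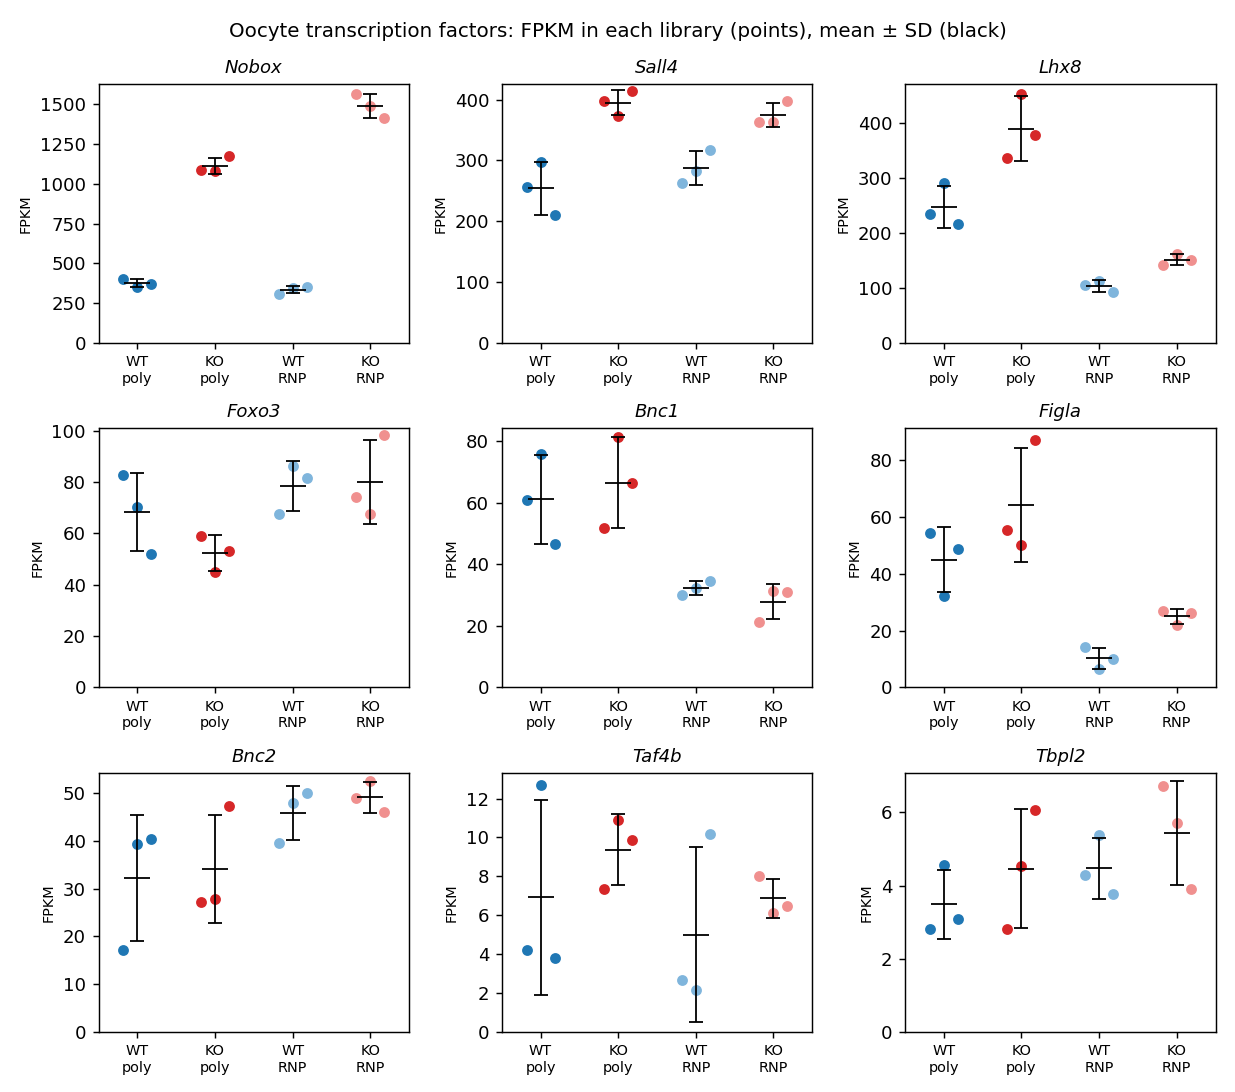
FPKM (y axes, linear, from 0) of 9 factors in the 3 libraries (points) of WT polysome, KO polysome, WT RNP and KO RNP, with the mean and SD in black. Nobox stands between 309 and 403 FPKM in the 6 WT libraries and between 1084 and 1567 FPKM in the 6 KO libraries, and Taf4b shows 1 WT library apart from the others in each pool.

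Between genotypes in polysomes, the comparison of interest is whether the loss of LSM14B altered the amount of each mRNA among those bound by ribosomes. *Nobox* was at 403, 353 and 371 FPKM in WT and at 1084, 1084 and 1173 FPKM in KO. The groups lay far apart, and the log2 difference of FPKM + 1 was 1.57 (SE 0.10, adjusted p = 0.000334, limma with Benjamini-Hochberg adjustment over 9536 genes). It was the largest change among the factors and ranked 400th from the top of all genes tested.

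*Lhx8* was at 235, 290 and 216 FPKM in WT polysome libraries and at 337, 454 and 378 FPKM in KO polysomes. All KO libraries were above all WT libraries, with a log2 difference of 0.66 (SE 0.16, adjusted p = 0.0338, limma). *Sall4* was at 257, 297 and 210 FPKM in WT and at 398, 373 and 414 FPKM in KO, also without overlap, with a log2 difference of 0.65 (SE 0.14, adjusted p = 0.0263, limma). Thus 3 of the 9 factors tested passed the test upwards, where 5.64% of all genes did, and none downwards, where 4.73% of all genes did, with 10.4% in either direction. The same 3 were those without overlap between KO and WT, with KO higher, a pattern of 18.2% of all genes tested. None lay wholly below WT, as 13.4% of all genes did. Without KO polysome replicate 2, *Nobox* alone passed, while *Lhx8* had a log2 difference of 0.54 (adjusted p = 0.132) and *Sall4* one of 0.69 (adjusted p = 0.0714), and the count over all genes fell from 989 to 398. This fall was not particular to that library. Without KO polysome replicate 3, *Nobox* alone passed too and the count was 383, and without KO polysome replicate 1 the count was 522. *Nobox* was also the one factor that passed without the filter on low values or without the intensity trend of the model. Leaving out another library also ended the call of *Lhx8* (WT replicates 1 and 3, KO replicate 3) or of *Sall4* (WT replicate 1, KO replicates 1 and 3), with adjusted p of 0.0518 to 0.0984.

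*Figla* was at 54.3, 32.1 and 48.8 FPKM in WT polysome libraries and at 55.5, 50.3 and 87.3 FPKM in KO polysomes. The groups overlapped, and the log2 difference of 0.50 had a 95% interval of -0.14 to 1.13 (adjusted p = 0.297, limma). *Foxo3* was at 82.7, 70.2 and 52.1 FPKM in WT and at 58.8, 44.8 and 52.9 FPKM in KO, a log2 difference of -0.37 with an interval of -0.86 to 0.13. *Bnc1* and *Bnc2* had differences of 0.12 (-0.43 to 0.67) and 0.13 (-0.72 to 0.98). The low *Taf4b* and *Tbpl2* had the widest intervals, from -0.56 to 1.66 around 0.55 and from -0.75 to 1.28 around 0.26, which hold changes as large as that of *Lhx8*. *Taf4b* was at 4.20, 12.7 and 3.81 FPKM in WT polysome libraries, with replicate 2 apart from the others.

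In RNP, *Figla* passed along with *Nobox*, *Lhx8* and *Sall4*. *Nobox* was at 309, 343 and 350 FPKM in WT RNP and at 1567, 1493 and 1415 FPKM in KO RNP. Its log2 difference was 2.16 (SE 0.08, adjusted p = 1.56e-06, limma over 9931 genes), the 69th from the top of all genes tested. *Figla* was at 14.03, 6.58 and 10.1 FPKM in WT and at 26.8, 22.1 and 26.1 FPKM in KO, with every KO library above every WT library. This was a 2.44-fold difference of the means and 1.26 on the log2 scale (SE 0.28, adjusted p = 0.0123, limma), from an estimated 24.4 to 57.5 fragments a library in WT and 83.0 to 114 in KO.

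*Lhx8* was at 105, 113 and 92.7 FPKM in WT RNP and at 142, 161 and 151 FPKM in KO RNP, a log2 difference of 0.55 (SE 0.12, adjusted p = 0.0107, limma). *Sall4* was at 262, 283 and 317 FPKM in WT and at 364, 363 and 397 FPKM in KO, a log2 difference of 0.38 (SE 0.09, adjusted p = 0.0194, limma). Neither gene overlapped between genotypes. In all, 4 of 9 factors passed upwards, where 10.5% of all genes did, and none downwards (10.2% of all genes), with 20.7% in either direction, and the same 4 were without overlap, as were 20.7% of all genes tested with KO higher, and 18.4% of all genes were without overlap with KO lower. The *Sall4* call was lost without any 1 of the KO RNP libraries (adjusted p = 0.0518 to 0.0783) and after quantile normalization (0.23, adjusted p = 0.136). Without the intensity trend, *Sall4* (adjusted p = 0.170) and *Lhx8* (adjusted p = 0.0779) did not pass. That of *Figla* was lost without KO RNP replicate 1 (adjusted p = 0.0514) and that of *Lhx8* without KO RNP replicate 2 (adjusted p = 0.0519).

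The other factors did not pass in RNP. *Foxo3* was at 67.7, 86.2 and 81.4 FPKM in WT RNP and at 74.2, 67.4 and 98.3 FPKM in KO RNP, a log2 difference of 0.02 (95% interval -0.36 to 0.40) that turned to -0.01 after quantile normalization. *Bnc1* and *Bnc2* had log2 differences of -0.23 (-0.67 to 0.22) and 0.10 (-0.24 to 0.45), and *Tbpl2* one of 0.22 (-0.51 to 0.95). *Taf4b* was at 2.65, 2.16 and 10.2 FPKM in WT RNP and at 8.004, 6.12 and 6.47 FPKM in KO RNP. Its WT replicate 3 lay above all KO libraries and the other two WT libraries below them, so that the log2 difference was 0.63 (SE 0.48, adjusted p = 0.395, limma) with all libraries and 1.21 (adjusted p = 0.0337) without that replicate.

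**Figure D2:**
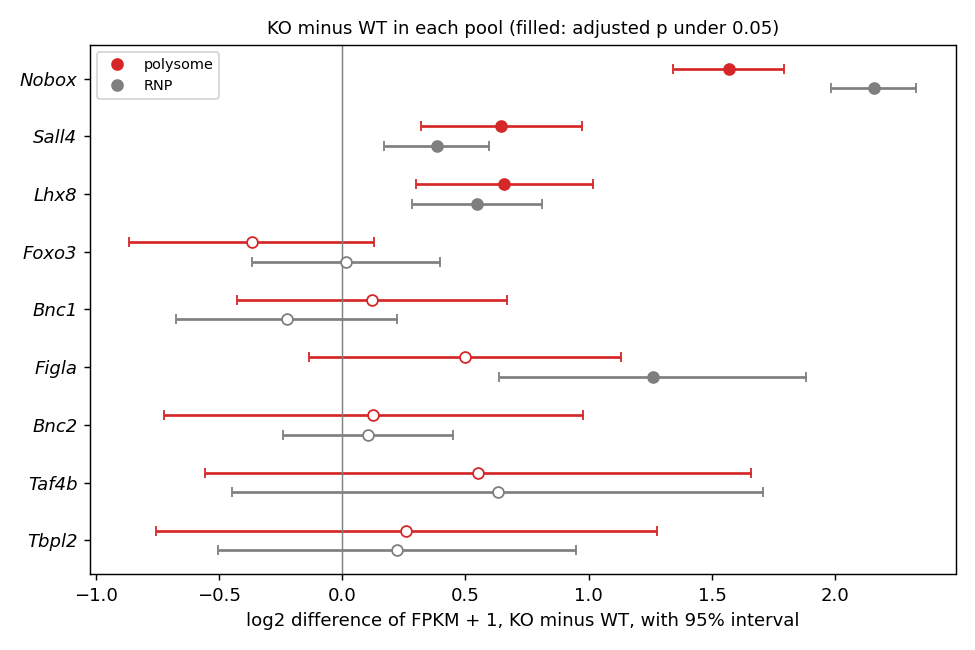
Log2 difference of FPKM + 1, KO minus WT (x axis), of 9 factors in polysomes (red) and RNP (grey), with 95% intervals from limma and filled points where the adjusted p was under 0.05. Nobox lies at 1.57 and 2.16, Lhx8 and Sall4 between 0.38 and 0.66 in both pools, and the intervals of Foxo3, Bnc1, Bnc2, Taf4b and Tbpl2 cross 0.

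*Sohlh1* was listed at 0 in 11 of 12 libraries and at 0.712 FPKM, an estimated 5.05 fragments, in KO polysome replicate 1. It did not reach the filter of 1 FPKM in 3 libraries and was not tested. A count of 3 fragments would correspond to 0.350 to 0.588 FPKM, so a level below this would rest on fewer than 3 fragments. A listed 0 can also be a failed estimate, since *Gapdh* was listed at 0 in 2 libraries, while *Actb*, *Eef2* and *Hprt* were above 0 in all.

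The split of each mRNA between the pools was compared next. FPKM hold no measure of the total RNA in a pool. A difference between the pools is therefore relative to the other genes of each pool and is not the share of an mRNA on ribosomes. In WT, *Figla*, *Lhx8* and *Bnc1* were higher in polysomes, 3 of 9 factors where 7.97% of all genes were higher. None was lower, as 6.72% of all genes were, and 14.7% of genes passed in either direction. The log2 difference, polysome minus RNP, was 2.06 for *Figla* (SE 0.34, adjusted p = 0.00531, limma), 1.24 for *Lhx8* (SE 0.16, adjusted p = 0.00153) and 0.88 for *Bnc1* (SE 0.23, adjusted p = 0.0345). Every polysome library of these 3 genes, and of *Nobox*, was above every RNP library, as for 16.7% of all genes, and none of the factors had all of them below (17.9% of all genes). The *Bnc1* call was lost when any WT library but polysome replicate 3 was left out (adjusted p = 0.0718 to 0.108), and also without the filter (0.0575) or the intensity trend (0.0932). *Nobox* had a log2 difference of 0.17 (95% interval -0.08 to 0.42) and *Sall4* one of -0.19 (-0.53 to 0.16).

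In KO the same 3 genes were higher in polysomes, where 15.5% of all genes were. The log2 difference was 1.35 for *Lhx8* (SE 0.12, adjusted p = 6.79e-05, limma), 1.29 for *Figla* (SE 0.22, adjusted p = 0.00206) and 1.22 for *Bnc1* (SE 0.22, adjusted p = 0.00279). The 3 were also without overlap, as were 22.5% of all genes with polysomes higher. In addition 2 factors were lower in polysomes, where 13.8% of all genes were, and 29.2% passed in either direction. *Nobox* in polysomes was at 0.747 of its RNP level, with a log2 difference of -0.42 (SE 0.07, adjusted p = 0.00228, limma), without overlap like 21.7% of all genes, and passed without each library in turn, although quantile normalization gave -0.79 and the call was lost without the intensity trend (adjusted p = 0.0956). *Foxo3* had a log2 difference of -0.60 (SE 0.18, adjusted p = 0.0313), which became -0.49 (adjusted p = 0.0863) without KO polysome replicate 2 and was also lost without KO RNP replicates 1 or 3 or KO polysome replicate 3, without the filter, and without the intensity trend. *Bnc2* had a log2 difference of -0.56 (95% interval -1.05 to -0.07, adjusted p = 0.0866) and passed after quantile normalization (-0.62, adjusted p = 0.0463) and without KO polysome replicate 3 (-0.81, adjusted p = 0.00721).

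**Figure D3:**
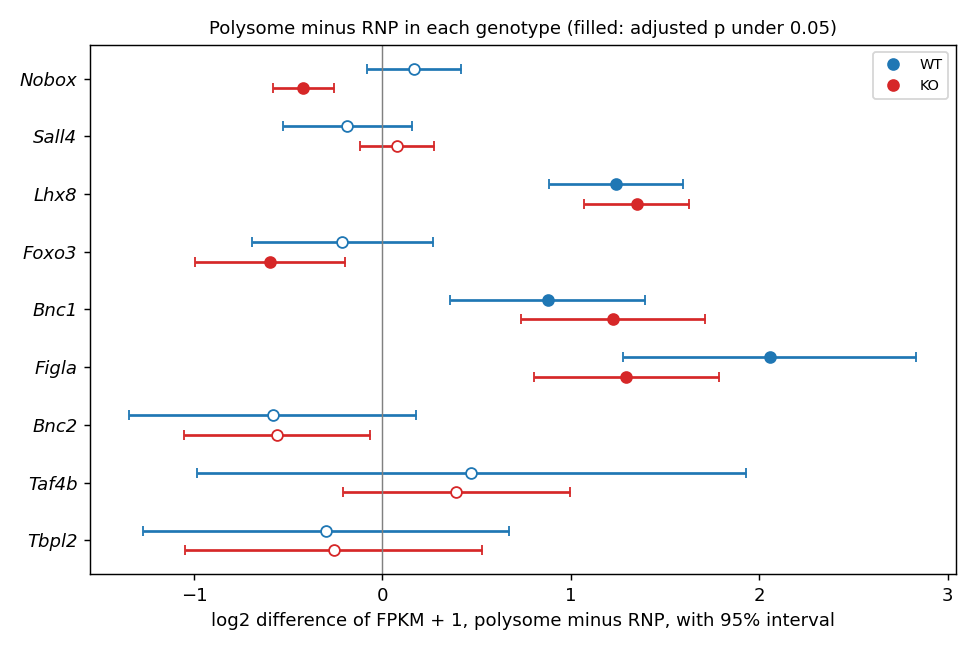
Log2 difference of FPKM + 1, polysome minus RNP (x axis), of 9 factors in WT (blue) and KO (red), with 95% intervals from limma and filled points where the adjusted p was under 0.05. Figla, Lhx8 and Bnc1 lie to the right in both genotypes, and Nobox moves from 0.17 in WT to -0.42 in KO.

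The change of the polysome-to-RNP difference between genotypes was tested as an interaction over all 12 libraries, and 0 of the 9 factors passed, where 0.237% of 10949 genes did (0.0822% upwards and 0.155% downwards). By an unadjusted p under 0.05, 1 of the 9 passed, where 11.1% of all genes did. This was *Nobox*, with a change of -0.59 (SE 0.12, unadjusted p = 0.000232, adjusted p = 0.0668, limma). It passed with a filter at 5 FPKM (adjusted p = 0.0484), with libraries rescaled to the same median (-0.63, adjusted p = 0.0316) and after quantile normalization (-0.75, adjusted p = 0.0238). It did not pass with pseudocounts of 0.1 (adjusted p = 0.0704) or 5 (0.0673), without the filter (0.0917), with the replicate block (0.215), without the intensity trend (0.416) or without any 1 of the 12 libraries. *Figla* had a change of -0.76 with a 95% interval of -1.65 to 0.13, and *Lhx8* and *Sall4* had changes of 0.11 (-0.32 to 0.54) and 0.26 (-0.11 to 0.64). The intervals of *Taf4b* (-1.62 to 1.47) and *Tbpl2* (-1.07 to 1.14) were the widest.

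The general transcription machinery, to which TAF4B and TBPL2 belong, was read from a list of 24 genes of TFIID, TFIIA, TFIIB, TFIIE and TFIIF and TBP relatives. In polysomes 3 of 23 tested rose and 4 fell, and in RNP 0 of 24 rose and 8 fell. Of all genes, 5.64% rose and 4.73% fell in polysomes, and 10.5% rose and 10.2% fell in RNP. The list had a median log2 change of -0.38 in polysomes and -0.31 in RNP against 0.10 and 0.05 over all genes. *Tbp*, which encodes the TATA-binding protein that TBPL2 resembles, was at 33.7 ± 5.65 FPKM in WT and 9.58 ± 4.62 FPKM in KO polysomes and fell by 1.80 on the log2 scale (SE 0.37, adjusted p = 0.0194, limma). It also fell by 1.47 in RNP (SE 0.21, adjusted p = 0.00171). *Taf4a*, the paralog of *Taf4b* that other cells use in TFIID, was at 23.4, 33.4 and 25.9 FPKM in WT RNP and at 3.73, 5.09 and 6.56 FPKM in KO RNP. It fell by 2.23 on the log2 scale (SE 0.27, adjusted p = 0.000702, limma), and by 1.74 in polysomes (SE 0.45, adjusted p = 0.0453), whereas *Taf4b* did not pass in either pool. *Taf4a* lies 48.3 kb from *Lsm14b*, the targeted gene, on chromosome 2.

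*Taf7* fell in both pools, by 0.78 in polysomes (adjusted p = 0.0388, limma) and 0.62 in RNP (adjusted p = 0.00889). *Taf13* fell by 1.73 (adjusted p = 0.000222, limma) and *Taf8* by 1.52 (adjusted p = 0.00575) in RNP, and *Taf12* fell by 1.08 in polysomes (adjusted p = 0.0131). *Taf5*, which encodes a scaffold subunit, was at 6.77, 7.62 and 9.35 FPKM in WT polysome libraries and at 32.8, 29.7 and 36.5 FPKM in KO polysomes, a rise of 1.94 (SE 0.27, adjusted p = 0.00528, limma). *Gtf2a1l*, the germ-cell form of a TFIIA subunit, rose by 1.08 in polysomes (adjusted p = 0.0251), and *Taf9b* by 0.64 (adjusted p = 0.0238). None of the 24 changed in the polysome-to-RNP difference by the adjusted test, and 7 had an unadjusted p under 0.05, where 11.1% of all genes did. Without KO polysome replicate 2, *Taf5* alone rose and *Taf12* alone fell in polysomes. The polysome call of *Taf4a* was lost without any library but WT replicate 1 (adjusted p = 0.0704 to 0.133), and those of *Tbp*, *Gtf2a1l* and *Taf9b* without at least 1 other library. That of *Taf4a* was also lost in 4 of 8 other alternatives.

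Of 12 partners and paralogs of the factors, 8 were tested in polysomes and none passed, where 10.4% of all genes did. None had an unadjusted p under 0.05, where 26.3% of all genes did. In RNP 2 of 7 fell, where 10.2% of all genes did, and none rose, where 10.5% did. *Ldb1*, which encodes the cofactor of LIM homeodomain proteins such as LHX8, was at 40.1 ± 6.42 FPKM in WT RNP and 16.9 ± 3.40 FPKM in KO RNP and fell by 1.21 on the log2 scale (SE 0.21, adjusted p = 0.00454, limma). *Sohlh2*, the partner of SOHLH1, fell by 2.38 (adjusted p = 0.00489) at a low level, with a mean of 3.27 FPKM over the RNP libraries. The KO libraries alone did not meet the filter of 1 FPKM in 3 libraries for *Sohlh2*. It entered the RNP test, and the 2 that fell, only with WT libraries, where it was higher. The E-protein gene *Tcf3* did not pass in either pool (0.37 and 0.29).

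Genes known as targets of these factors were read from a list of 16. In polysomes 7 rose and 2 fell, and in RNP 7 rose and 3 fell. These counts stand against the same shares of all genes, 5.64% and 4.73% in polysomes and 10.5% and 10.2% in RNP. The targets had a median log2 change of 0.37 and 0.36 against 0.10 and 0.05 over all genes. Among the zona pellucida genes, targets of FIGLA, *Zp2* was at 41.5 ± 7.76 FPKM in WT and 82.2 ± 12.7 FPKM in KO polysomes and rose by 0.97 (SE 0.21, adjusted p = 0.0219, limma), and *Zp3* rose by 0.64 in polysomes (adjusted p = 0.0457) and 0.41 in RNP (adjusted p = 0.00869). *Zp1* had log2 differences of 0.56 (adjusted p = 0.120) in polysomes and -0.03 (adjusted p = 0.899) in RNP, and the latter turned to 0.03 after median rescaling. *Nlrp14* and *Nlrp5*, maternal-effect genes of the subcortical region, rose in both pools, by 1.22 and 1.08 in polysomes and by 1.83 and 0.86 in RNP, and *Padi6*, of the same complex, rose by 0.86 in polysomes and 0.85 in RNP.

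Not all reported targets rose. The growth factor gene *Gdf9* rose by 0.52 in RNP (SE 0.06, adjusted p = 0.000458, limma) and had a difference of 0.17 (adjusted p = 0.211) in polysomes. *Fgf8* fell by 1.69 in RNP (SE 0.15, adjusted p = 0.000137, limma), from 257 ± 38.0 to 78.7 ± 12.6 FPKM. *Mos*, the kinase of meiotic arrest at metaphase, fell by 0.85 in polysomes and 0.36 in RNP, *Zar1* by 1.15 in polysomes and *H1foo* by 0.26 in RNP. Without KO polysome replicate 2, the risers in polysomes were *Nlrp14*, *Nlrp5* and *Padi6*, while *Mos* and *Zar1* still passed downwards. The polysome call of *Zp3* was lost without any library but WT replicate 3 (adjusted p = 0.0600 to 0.109), those of *Zp2* and *Zar1* without several of them, and that of *H1foo* in RNP without KO RNP replicates 1 or 2 and after median rescaling. In polysomes *Zp3* also lost its call in 6 of 8 other alternatives, among them median rescaling (adjusted p = 0.0560) and quantile normalization (0.0984), and *Zar1* in 3 of 8. None of the 16 passed in the polysome-to-RNP difference, and 7 had an unadjusted p under 0.05, against 11.1% of all genes.

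**Figure D4:**
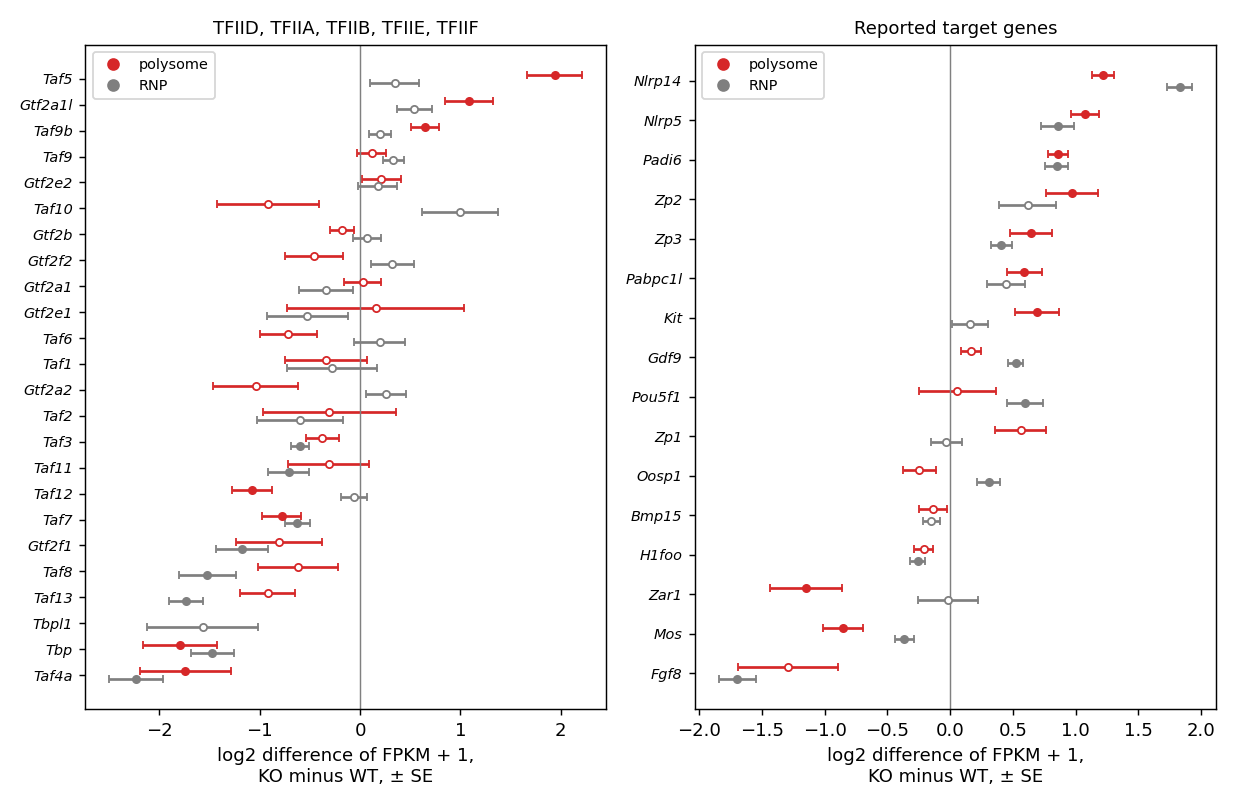
Log2 difference of FPKM + 1, KO minus WT (x axes), with SE for the genes of the general transcription list (left) and the reported targets (right), in polysomes (red) and RNP (grey), filled where the adjusted p was under 0.05. Taf4a and Tbp lie at the lower end and Taf5, at 1.94 in polysomes, at the upper end on the left side, and Nlrp14 lies furthest to the right among the targets, at 1.22 and 1.83.

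The genes with the most similar pattern were sought by Pearson's r of log2(FPKM + 1) over the 12 libraries, among 6679 genes, as a description in which the 4 groups and the libraries are shared. *Nobox* was closest to *Tceal8* (r = 0.989), *Abcb6* (r = 0.988) and *Patl2* (r = 0.976). *Patl2*, which encodes an oocyte RNA-binding protein, was at 5.98 FPKM in WT and 24.9 FPKM in KO polysomes and at 5.05 and 27.6 FPKM in RNP. *Figla* was closest to *Mcee* (r = 0.982), *Lhx8* to *Uhrf1* (r = 0.987), which encodes a factor of DNA methylation maintenance, and *Sall4* to *Tceb3* (r = 0.963).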

How the data were processed

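Polysome and RNP RNA of WT and KO GV oocytes was amplified by Smart-seq2 and sequenced, with 3 libraries of each of 4 groups. Trimmed reads had been aligned by the authors to mm10 (TopHat2 2.0.13), and Cufflinks 2.2.1 gave the FPKM values they deposited. Cuffnorm and Cuffdiff are also listed among their tools, and how the libraries were scaled to one another was not established here. The sources differ on the top sucrose concentration and the library kit, and the annotation release and strand setting are not given in the sources used here. Amplification and length scaling affect low and short genes most. A further 54 columns with the authors' cuffdiff log2 changes, p-values and q-values between groups and single libraries were not used.

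Differences were tested with limma 3.58.1 in R 4.3.3 on log2(FPKM + 1), with moderation by empirical Bayes along an intensity trend. Genes needed 1 FPKM or more in 3 or more of the libraries compared. P-values were adjusted by Benjamini-Hochberg over all genes tested, with a threshold of 0.05. A fold change on this scale understates the change of low genes. An exact permutation test of 3 against 3 cannot go below p = 0.1. KO and WT were compared in each pool, the pools within each genotype, and the interaction over 12 libraries. Fragments were estimated from FPKM steps and the transcript length less 200 bases. Python 3.11.15, pandas 2.3.3, numpy 2.4.6 and matplotlib 3.10.9 were used for levels and plots, GENCODE M21 for positions and RefSeq (GRCm38.p6) for promoters. The method was tested on simulated data.

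The members and lists were chosen with earlier results of these data known. Of the lists, the genes named were up to 3 in each direction with the largest called change and a mean of at least 5 FPKM, and *Zp1*, *Zp2*, *Zp3* and *Gdf9* whatever their values. *Sohlh2*, *Tcf3*, *Taf7*, *Inha*, *Inhba*, *Fshr*, *Cyp19a1*, *Dazl*, *Tcl1*, *Sycp3*, *Mir300* and *Gapdh* with the other genes read for listed zeros were named after their values were seen. Alternatives were pseudocounts of 0.1 and 5, no filter, a filter at 5 FPKM, median rescaling, quantile normalization, a replicate block, no intensity trend and each library left out. The lists without KO polysome replicate 2, and the alternatives for the named list genes, were added after seeing the data.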

Additional observations from a re-analysis of the deposited data

Results flagged for a closer look

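For *Nobox* the order of the polysome and RNP levels was opposite in the 2 genotypes, without overlap between the pools in either. The WT polysome libraries (353 to 403 FPKM) were all above the WT RNP libraries (309 to 350 FPKM), and the KO polysome libraries (1084 to 1173 FPKM) were all below the KO RNP libraries (1415 to 1567 FPKM). Such non-overlap was seen for 16.7% of all genes in WT and 21.7% in KO. The WT difference of 0.17 did not pass (adjusted p = 0.354, limma) and was as low as 0.00873 under other processing. The KO difference of -0.42 passed (adjusted p = 0.00228, limma), but not without the intensity trend (0.0956). The test of the change between genotypes, the interaction of genotype and pool, gave -0.59 (SE 0.12, adjusted p = 0.0668, limma), and leaving out 1 library gave -0.63 to -0.53 with adjusted p from 0.0610 to 0.228.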

How the results depend on the processing

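Of 1153 recalculated changes of single genes, 1018 kept their direction and side of the threshold, 97 lost the call, 6 gained one and 32 turned direction. *Nobox* kept its rise in polysomes (1.52 to 1.62) and RNP (2.10 to 2.19) without each library in turn. The reversed values all belonged to changes that were not called: *Foxo3* in RNP at -0.00888 and *Sall4* between pools in KO at -0.0446 after quantile normalization, *Zp1* in RNP at 0.0344 after median rescaling, and in the polysome-to-RNP difference *Taf4b* at 0.00932 with a pseudocount of 5, *Bnc2* at -0.0203 (median rescaling) and -0.00895 (quantile) and *Tbpl2* at -0.0506 (quantile). Leaving out 1 library gave in polysomes -0.27 to 0.33 for *Bnc2* and -0.0554 to 0.29 for *Bnc1*, in RNP -0.14 to 0.13 for *Foxo3* and -0.0746 to 0.00159 for *Zp1*, in the polysome-to-RNP difference -0.65 to 0.41 for *Taf4b*, -0.17 to 0.28 for *Tbpl2*, -0.37 to 0.23 for *Bnc2* and -0.0047 to 0.23 for *Lhx8*, between pools in WT -0.0141 to 1.05 for *Taf4b*. The number of genes called in polysomes was 545 without a filter and 508 without the intensity trend (383 to 790 without 1 library), with 1 factor higher in either case (1 to 3). In RNP, 2 factors were higher without the trend (2 to 5 without 1 library), and 1255 to 1911 genes were called without 1 library. In the polysome-to-RNP difference, 6 genes passed without the trend (0 to 46 without 1 library), and 1 factor, *Nobox*, was lower with the filter at 5 FPKM, median rescaling or quantile normalization. Between pools, 728 genes passed in WT without the trend (780 to 1212 without 1 library), and in KO 1 factor was lower without a filter and 0 without the trend (1 to 2). The causes were not tested.

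No pairing by replicate number was seen: deviations of same-numbered libraries correlated at -0.0207 to 0.0255 over 12 pairs, none over 0.1. The labels do not say whether same-numbered libraries shared a lysate or gradient, and these correlations cannot decide it. With the replicate number as a block, 672 genes passed in polysomes, 1799 in RNP, 0 in the polysome-to-RNP difference (1129 at an unadjusted p under 0.05), 1165 between pools in WT and 2720 in KO, and *Sall4* in polysomes (adjusted p = 0.0554) and *Bnc1* between pools in WT (adjusted p = 0.0593) did not pass.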

Other observations

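Among the 9 protein-coding genes annotated within 200 kb of *Lsm14b*, 7 were tested in each pool. In polysomes 1 fell, *Taf4a*, and in RNP 2 fell, *Taf4a* and *Ss18l1*, and none rose, where 4.73% of all genes fell in polysomes and 10.2% in RNP. The polysome call of *Taf4a* was lost without any library but WT replicate 1. *Ss18l1*, a chromatin remodelling subunit gene 7.0 kb from *Lsm14b*, was at 25.5 FPKM in WT RNP and 7.12 FPKM in KO RNP (log2 change -1.66, SE 0.38, adjusted p = 0.0150, limma). *Psma7*, a proteasome subunit gene 0.9 kb from *Lsm14b*, was at 22.3 and 27.9 FPKM in RNP (log2 change 0.34, adjusted p = 0.313). These genes were chosen after the value of *Taf4a* was seen, and the part of their position in these changes was not tested.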
